A study of Schizosaccharomyces pombe with 2 samples.

Results

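The probes described here read the mitochondrial genome of fission yeast (Schizosaccharomyces pombe). They are 5 of the 5049 features named on a spotted DNA array, numbered 23 to 27, and took 10 of the 11520 spots of each array. They were found by names that carry the database entry of the mitochondrial genome and sit among the control spots. As a group they were selected on their log2 ratios of mutant over wild type, which were known from an earlier analysis of these arrays, so these ratios are a description with no test. No position on the mitochondrial genome was used for any probe. Which mitochondrial RNA each probe reads is therefore not settled, and several may read the same transcript.

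Each array compared a strain marked Tup11,12D, read here as lacking the related transcriptional corepressor genes tup11 and tup12, directly with a wild-type strain marked WT. Cultures of both strains were in logarithmic growth in rich medium, and 30 degrees was stated for array 1. On array 1 Cy3 labelled the mutant and Cy5 the wild type, array 2 had the dyes swapped, and every array had its own RNA preparation (n = 2). The sources used here give no other alleles of the strains, no number of isolates and no primer for the cDNA.

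The headers do not say which strain a channel holds. The mean local background was 1.80 on array 1 and 753 on array 2 in the first channel, against 408 and 12.5 in the second, so the columns appear to follow the strain and not the dye. This does not tell which strain comes first. The mutant was taken as the first channel because the titles name it first and the authors' deposited ratios put the first channel on top, a likely but unstated reading. If this reading were wrong, each sign below would turn. A feature named tup1, which matched no gene of the gene table, stood at -2.37 on array 1 and -1.86 on array 2 (limma adjusted p = 0.000476). The feature of tup11 stood at 0.95 and -0.11 (limma adjusted p = 0.489), with a signal above background in both strains, and tup12 was not analysed here. The deletions were thus not verified from these values.

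Mitochondria keep a small genome of their own. It encodes a few membrane-embedded subunits of the respiratory chain and of the ATP synthase, together with the ribosomal and transfer RNAs that serve their translation. Most other mitochondrial proteins are made from nuclear genes and imported. A nuclear-encoded RNA polymerase related to those of phages transcribes the mitochondrial genome into long RNAs, which are then cut into mature ones. The gene table lists 39 mitochondrial genes, of which 11 encode proteins, 25 tRNAs, 2 ribosomal RNAs and 1 the RNase P RNA.

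All 5 probes gave signals above background in both strains. Signals are median spot intensities minus the median local background, and a reading passed when it exceeded the 95th percentile of 96 spots of the bacterial genes aceF and kdtA in its channel. The mutant readings of the 10 probe spots had a lowest value of 1370, a median of 8569 and a highest value of 11950 on array 1, and 1540, 4842 and 34788 on array 2. The wild-type readings were 3368, 10674 and 14679 on array 1, and 673, 2780 and 11991 on array 2. The thresholds were 442 and 1077 in the mutant channels of arrays 1 and 2, and 1659 and 488 in the wild-type channels.

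Thus 40 of 40 readings passed, and 37 also exceeded the brightest aceF or kdtA spot of their channel. The 3 others belonged to probe 26, the dimmest, whose lowest readings were 1.43 times the threshold in the mutant and 1.38 times in the wild type, both on array 2. Among all 4816 fitted features, 64.8% passed in both channels of each array. Spots of a further bacterial gene, tufA, averaged 925 and 921 in the mutant and 2908 and 545 in the wild type, and so passed in 3 of the 4 channels. Passing therefore does not by itself show a specific signal. Brightness depends on the probe, so signals of different probes do not rank their RNAs.

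The 5 probes were higher in the mutant on both arrays, where 30.2% of all features were. The median of their mean log2 ratios of mutant over wild type was 0.59, beside 0.01 over all features. It was 0.90 on array 1 and 0.37 on array 2. Probes 24, 25 and 27 had the larger value on array 1, and probes 23 and 26 on array 2. In RNA of a whole culture, a different share of cells and a different amount of RNA per cell cannot be told apart, and the number of mitochondrial genomes per cell was not measured.

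The signals before normalisation can be set against those of the gene spots, which were not matched to the probes in brightness. The median mutant signal was 1340 for gene spots and 8569 for probe spots on array 1, and 1852 and 4842 on array 2. The loess curve behind the log2 ratios follows brightness, but the raw ratios here do not. How much of the gaps below goes with brightness was not tested. On array 1 the mutant signal was 0.41 to 0.90 of the wild-type signal in the 10 probe spots, with a median of 0.80, against a median of 0.32 over 9078 gene spots. All 10 probe spots exceeded that gene median. On array 2 the ratio was 1.11 to 4.50 with a median of 2.15, against 1.57 over 9186 gene spots, and 7 of the 10 probe spots exceeded it.

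Probe 23 had the highest mean of the 5. Its spots on array 1 read 11950 and 11499 in the mutant, against 14679 and 13852 in the wild type. On array 2 they read 34788 and 21829 in the mutant, against 11991 and 4850 in the wild type. The second spot on array 1 carried the quality code 3 and was left out, so array 1 rests on 1 spot. The spots used gave log2 ratios of 0.90 on array 1 and of 1.15 and 1.68 on array 2. The arrays thus gave 0.90 and 1.41, with a mean of 1.16 ± 0.36 (SD, n = 2), or 2.23-fold. Among all features this mean lay at percentile 98.4.

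Probe 27 came next. On array 1 its spots read 7763 and 10366 in the mutant, against 8580 and 13739 in the wild type, and the second was left out for code 3. On array 2 they read 4823 and 4866 in the mutant, against 3121 and 2341 in the wild type. The log2 ratio was 1.09 on the spot used of array 1 and 0.19 and 0.59 on array 2. Its array values of 1.09 and 0.39 gave a mean of 0.74 ± 0.49 (SD, n = 2), or 1.67-fold. The value of array 1 lay at percentile 97.7 of all features and that of array 2 at 85.3.

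Probe 25 also stood higher on array 1. Its mutant signals there were 8525 and 8828, against 9495 and 11158 in the wild type, and on array 2 they were 3464 and 3519, against 3121 and 1590 in the wild type. The spot ratios were 1.07 and 0.88 on array 1, and -0.24 and 0.67 on array 2, where the copies differed in sign. The arrays gave 0.97 and 0.21, with a mean of 0.59 ± 0.54 (SD, n = 2), or 1.51-fold. Its array 2 value lay at percentile 71.7 of all features, so a value of that size was common there.

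Probe 24 had copies that differed on both arrays. Its mutant signals were 7102 and 8613 on array 1, against 12692 and 10191 in the wild type, and 4861 and 6300 on array 2, against 4052 and 2438 in the wild type. The spot ratios were 0.39 and 0.98 on array 1, and -0.16 and 0.89 on array 2. The arrays gave 0.68 and 0.37, with a mean of 0.53 ± 0.22 (SD, n = 2), or 1.44-fold.

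Probe 26 was nearest to 0. Its mutant signals were 1370 and 2287 on array 1, against 3368 and 5200 in the wild type, and 2078 and 1540 on array 2, against 1282 and 673 in the wild type. The spot ratios were 0.26 and 0.20 on array 1, and 0.23 and 0.42 on array 2, the narrowest spread of the 5 probes. The arrays gave 0.23 and 0.32, with a mean of 0.27 ± 0.07 (SD, n = 2), or 1.21-fold, at percentile 81.5 of all features. Both mutant readings on array 2 carried the quality code 2, which the sources used here do not define.

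The order of the probes was partly shared by the arrays. Of the 10 pairs of probes, 6 had the same order on both arrays and 4 did not. The difference in log2 ratio between probes 23 and 26 was 0.68 on array 1 and 1.09 on array 2 (mean 0.88 ± 0.29, SD, n = 2). Between probes 23 and 25 it was -0.07 and 1.20, so the distance of probe 23 from probe 25 rests on array 2. The same held against probe 27, with -0.18 and 1.02. Probes 24 and 25 also changed places, at -0.29 and 0.15, and their mean difference of -0.07 was smaller than its SD of 0.31.

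The printed copies of a probe did not always have the same sign. Each feature is printed in 2 sets, and of 18 probe spots used, 16 were above 0 and 2 below, both in the first set of array 2. There all 5 probes were higher in the second set, by 0.19 to 1.04 with a median of 0.53. Over 4334 genes the second set of array 2 was higher by a median of 0.15, with quartiles of -0.14 and 0.44. On array 1, 3 probes had both copies, and the second was higher in 1 of them, with a median difference of -0.06 beside -0.11 over 4246 genes. The 6 print blocks that hold the probes had median log2 ratios of -0.10 to 0.09 on array 1 and -0.19 to 0.17 on array 2. With a separate loess curve for each block, the median of the 5 probes was 0.57.

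The limma fit over all features called 1 of the 5 probes, number 23, as higher in the mutant. It called 3.34% of all features, 2.37% as higher and 0.976% as lower. Nothing is read from this count, since the probes were selected on the same ratios. With other processing it ran from 0 to 4.

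Features named for mitochondrial genes were printed near the probes, in the same row of their blocks. The gene cox1 encodes the largest subunit of cytochrome c oxidase, the last enzyme of the respiratory chain. Its mean signals were 27714 on array 1 and 21077 on array 2 in the mutant, against 34926 and 7503 in the wild type. The log2 ratio was 0.52 on array 1 and 1.09 on array 2, and the mean was 0.80 ± 0.41 (SD, n = 2, limma adjusted p = 0.0924), which missed the threshold. Like probes 23 and 26, cox1 had its larger value on array 2, as did cox2 and a feature named urf, both described below.

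The gene cob encodes cytochrome b, the mitochondrially encoded subunit of the cytochrome bc1 complex. Its mean signals were 21468 and 4913 in the mutant, against 34737 and 5311 in the wild type. The arrays gave 0.22 and -0.56, with opposite signs and a mean of -0.17 ± 0.56 (SD, n = 2, limma adjusted p = 0.789). Array 2 rests on 1 spot here, as the other had code 3.

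The gene cox2 encodes a further subunit of cytochrome c oxidase, which receives electrons from cytochrome c. Its arrays gave 0.21 and 0.31, with a mean of 0.26 ± 0.07 (SD, n = 2, limma adjusted p = 0.586). Both wild-type spots on array 1 were saturated and the mutant spots were not, so the value of 0.21 on array 1 may be too high. A feature named urf, which matched no gene of the table, gave 0.22 and 0.45 (limma adjusted p = 0.477). Over the 5 probes with cox1, cox2 and cob, 7 of 8 were higher on both arrays, with a median of 0.56. This count includes cox2, with its saturated wild-type spots on array 1.

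Probes named in the same way for other sequences had ratios around 0. Of 22 such probes, 20 were measured on both arrays, with a median log2 ratio of 0.0045 and means from -0.23 to 0.35. Of these, 5 were higher and 4 lower in the mutant on both arrays. Among the 14 that passed the background threshold in all 4 channels, the highest mean was 0.28, beside 0.27 for probe 26 and 0.53 to 1.16 for the other mitochondrial probes. The background controls gave 0.58 and 0.13 for aceF and 0.36 and 0.02 for kdtA on arrays 1 and 2. On array 1 these controls thus also lay above 0, and their part in the ratio of the dim probe 26 was not tested.

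Nuclear genes for subunits of oxidative phosphorylation work together with the products of the mitochondrial genome. Of 38 listed, 35 were measured, and limma called 0 of them beside 3.34% of all features, while 1 had an unadjusted p under 0.05, as 16.1% of all features (773 of 4816) did. Their median log2 ratio was 0.04, with 9 higher and 9 lower on both arrays. The highest mean was that of the cytochrome c gene cyc1, at 0.61 ± 0.22 (SD, n = 2, limma adjusted p = 0.175), with a saturated spot. The succinate dehydrogenase gene sdh1 stood at 0.36 ± 0.04 and the cytochrome oxidase gene cox8 at 0.34 ± 0.05 (SD, n = 2 each). The lowest means were those of the cytochrome oxidase genes cox12, at -0.48 ± 0.73, and cox13, at -0.39 ± 0.98, and of the cytochrome bc1 gene qcr8, at -0.46 ± 0.54 (SD, n = 2 each). In all 3 the SD exceeded the size of the mean.

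Assembly factors build these complexes. Of 29 listed genes 20 were measured, with a median of 0.07, and limma called 0, with 1 at an unadjusted p under 0.05 (16.1% of all features). The cytochrome oxidase assembly gene shy1 stood at 0.52 ± 0.44, cox16 at -0.41 ± 0.12, bcs1, for a chaperone of the Rieske protein, at -0.31 ± 0.07, and cbp6 at -0.29 ± 0.15 (SD, n = 2 each). The other highest members get no fold: cox18 was not well above background in either strain, nor was atp10 in the mutant.

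Genes for expression of the mitochondrial genome include rpo41, which encodes its RNA polymerase and stood at 0.08 ± 0.10 (SD, n = 2). Of 34 listed genes 29 were measured, with a median of -0.11, 11 higher and 12 lower on both arrays, and limma called 0. An unadjusted p under 0.05 was reached by 4 of the 29, a share near the 16.1% of all features. The highest means were those of ppr5, at 0.55 ± 0.02, mss51, at 0.43 ± 0.28, and ppr1, at 0.41 ± 0.26 (SD, n = 2 each). The ppr genes encode pentatricopeptide repeat proteins, a family that binds RNA in organelles. The lowest were rpm2, at -0.53 ± 0.02 (limma adjusted p = 0.221), pet127, at -0.50 ± 0.10, and mtl1, at -0.44 ± 0.07 (limma adjusted p = 0.307, SD, n = 2 each). The mutant signals of rpm2 and mtl1 were not well above background on either array. No fold is therefore given for them, and the size of their log2 ratios is uncertain. The mutant signal of pet127 passed on 1 array. The printed sets also differed: rpm2 stood at 0.07 with the first set alone and -1.13 with the second, and mtl1 at -0.82 and -0.07. The product of mtl1 is better known as a nuclear RNA helicase, so its place in this list is doubtful.

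Mitochondrial ribosomal proteins, nearly all of them encoded in the nucleus, translate the mitochondrial mRNAs. Of 62 listed genes 55 were measured, with a median of -0.09. On both arrays 26 were lower and 6 higher in the mutant, where 29.6% and 30.2% of all features were, and limma called 0. An unadjusted p under 0.05 was reached by 10 of the 55, again a share near the 16.1% of all features, which counts either direction. All 10 were lower in the mutant, some with a mutant signal not well above background on either array. The lowest was rsm19, of the small subunit, at -0.86 on array 1 and -0.78 on array 2 (mean -0.82 ± 0.06, SD, n = 2, limma adjusted p = 0.0581). The large-subunit genes mrpl22 and mrpl16 stood at -0.68 ± 0.57 and -0.68 ± 0.04 (SD, n = 2 each). The highest were mrp21 at 0.23, mrp51 at 0.22 and mrpl10 at 0.21. The differences between these lists and the probes were not tested.

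The nuclear genes closest to the probes, by Euclidean distance from the probes' medians of 0.90 on array 1 and 0.37 on array 2, were set11 at 0.93 and 0.38, asr1 at 0.88 and 0.40, and hri1 at 0.93 and 0.34. The distances were 0.0353, 0.0364 and 0.0389. With 2 arrays this likeness rests on 2 values per gene.

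The mean of each probe stayed above 0 in every one of 12 other processing settings that gave it a value. Across these settings the median of the probes ran from 0.41, with the first printed set alone, to 0.77, with the second printed set alone, where 3 probes had values. All measured probes were higher on both arrays in 10 of the 12. In the first printed set probes 24 and 25 were below 0 on array 2, and with median centring the lowest probe on array 2 was at -0.0031. Probe 23 ranged from 1.03 to 1.28, probe 27 from 0.60 to 0.84, probe 25 from 0.41 to 0.77, probe 24 from 0.12 to 0.93 and probe 26 from 0.18 to 0.32. With the authors' deposited log ratios, turned to log2, the means were 1.08 for probe 23, 0.68 for probe 27, 0.54 for probe 25, 0.48 for probe 24 and 0.29 for probe 26, in the same order of probes.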

How the data were processed

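The authors deposited scanner tables with spot intensity (mean and median of signal and local background, 2 channels) and a quality score (the Flag code 0, 2 or 3), per the file headers, and 1 table of normalised log10 ratios, made by Lowess according to the series design text. The deposited values correlated with log10 of the first over the second channel at 0.77 (array 1, 7323 spots) and 0.88 (array 2, 7077 spots). The direction was read from this. Slopes of the deposited values on these ratios were 0.55 and 0.79, and the scale was taken as log10, which the slopes do not fix exactly. Medians of the deposited values were -0.01 and 0.02, and values at the floor of -2 were left out.

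Background was removed from the median signals by normexp at an offset of 50. A loess curve (span 0.3) was then fitted to every array with control, mitochondrial and code 3 spots at weight 0 (limma 3.58.1, R 4.3.3). Spots with code 3 were left out (905 and 765), spots of a feature were averaged, and 4816 features with values on both arrays were fitted with lmFit and eBayes, Benjamini-Hochberg threshold 0.05. All mitochondrial features are named. Where neither array had a strain well above background, no fold is given. Names came from the ASM294v3 gene table, which left 156 fitted gene features unmatched. Median gene signals were 1340 to 3853 per channel; the number of arrays limits the precision. No separate cultures are stated beyond the RNA preparations, so p-values measure only the spread between these samples, which may be technical. Nuclear genes were named where called or among the 3 highest or lowest of a list; mitochondrial ribosomal proteins were found by symbol. The 3 nuclear features nearest to the probes were named as well, and rpo41, tup1 and tup11 outside this rule. Members, lists and rules were chosen with earlier results of these data known.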

Additional observations from a re-analysis of the deposited data

How the results depend on the processing

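The median of the probes kept its direction in every setting tried: it was 0.37 and 0.90 when array 1 or array 2 was left out, and 0.56 both without probe 23 and with cox1, cox2 and cob added, alternatives chosen after seeing the data. With 1 array left no call can be made, so counts of calls have no value there. The number of probes called, 1 in the report, was 4 with mean signals, 2 without background correction, and 0 with plain background subtraction, with median centring, with either printed set alone and with the authors' deposited ratios. Calls over all features, 161 in the report, came to 394 with mean signals, 391 with print-tip loess, 343 without background correction, 285 with dim spots removed and 260 with code 3 kept, and to 100 and 99 with the second and first printed sets, 60 with subtraction, 38 with median centring and 0 with the deposited ratios (limma, 596 at an unadjusted p under 0.05). Calls in the nuclear lists, 0 in the report, became 1 for oxidative phosphorylation with print-tip loess. For mitochondrial gene expression they became 2 with mean signals, 1 with the second printed set and 2 with dim spots removed. For mitochondrial ribosomal proteins they became 4 of 55 without background correction, 3 with print-tip loess and 3 with mean signals. With dim spots removed 1 of 48 was called, and all these calls were lower in the mutant. Over all features the share called was 7.14% without background correction, 8.12% with print-tip loess and 8.18% with mean signals. It was 7.26% with dim spots removed and 2.30% with the second printed set. The sign of cob turned to 0.12 with median centring, and its arrays alone gave 0.22 and -0.56; that of rpm2 turned to 0.069 with the first printed set. Of the 5 probes, 4 were well above background at the 99th percentile of the controls. The cause of these shifts was not tested. No paired analysis was possible because the arrays form 1 group of direct comparisons.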

Other observations

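Features named intergenic, also printed among the controls, leaned the same way as the mitochondrial probes; they were singled out after their values had been seen. Of 10 such features, 7 were above 0 on both arrays and 0 below on both, with a median log2 mutant over wild type of 0.23. The highest was intergenic4, at 0.88 on array 1 and 0.88 on array 2, followed by intergenic8 at 0.62 and 0.70. Of 6 features named intronic, 0 were above 0 on both arrays and the median was -0.03. No test was made of these features, and 30.2% of all fitted features were above 0 on both arrays. The bacterial controls aceF, kdtA and tufA had means of 0.35, 0.19 and 0.10. They stood at 0.58, 0.36 and 0.22 on array 1, and at 0.13, 0.02 and -0.03 on array 2. The intergenic medians were 0.25 on array 1 and 0.34 on array 2. A lean of similar size thus occurred in these background controls on array 1 but not on array 2, and its cause was not tested. Luciferase, Gfp and Gst had means of -0.57, -0.53 and -0.64, but their arrays differed in sign. They stood at 0.32, 0.46 and 0.20 on array 1, and at -1.47, -1.51 and -1.49 on array 2. The signals of the intergenic features were not set against the background threshold here.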
